A study of Mus musculus with 4 samples.

Results

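Digestive enzyme genes of the pancreatic acinar cell were followed in RNA of islet cells given the peptide MOTS-c or a scrambled peptide. The set held 9 genes, Prss2, Ctrb1, Cela1, Cela2a, Cela3b, Cpa1, Cpb1, Cel and Pnlip, taken as every gene probe whose accession mapped to 1 of these symbols. Each gene had 1 probe, so the set was 9 of the 56605 gene probes on the array and 9 of the 22917 gene symbols with a probe. Islet cells of C57BL/6 mice, labelled as male and 60 weeks old, had been cultured for 24 h with 10 μM of the scrambled peptide (replicates 1 and 2) or of MOTS-c (replicates 2 and 3). The groups shared strain, age, dose and time and differed in the peptide. They also differed in the animals, as the cells came from 4 littermates, 2 in each group, so peptide and animal cannot be told apart. RNA of each sample was hybridized to a one-color Agilent mouse array, and 59305 gene spots were read per array, of which 61.6% to 65.0% were well above their local background and 0 were saturated.

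Acinar cells make up most of the exocrine pancreas and release digestive enzymes into the ducts, whereas islets release hormones into the blood. Prss2 encodes a trypsinogen, the zymogen that, once active, cleaves and activates the others, which include chymotrypsinogen (Ctrb1), the elastases (Cela1, Cela2a, Cela3b) and the carboxypeptidases (Cpa1, Cpb1), while Pnlip and Cel encode lipases. Their transcripts are among the most abundant in acinar cells, and islets freed from the pancreas by collagenase can carry acinar cells along, so these genes are widely read as a measure of exocrine material in islet preparations.

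The arrays were first set against their labels. The labels give male animals. Of the Y chromosome, 4 genes (Ddx3y, Eif2s3y, Kdm5d, Uty) had 7 probes, none of which exceeded 1.52 times local background or was called well above it on any array. The signal of Xist, a transcript that coats a silenced X chromosome, was 23.7 to 33.5 times local background. Mki67 and Top2a, genes of dividing cells, were also well above background on each array, at 142 to 651 times local background. The labelled sex thus went against the Y-linked and Xist values on all 4 arrays, so no comparison could leave the arrays in question out. The values of Mki67 and Top2a do not bear on sex and put the labelled cells, islet cells of 60-week-old mice, in question as well. The origin of the RNA was not tested beyond these values, and the samples are called islet cells here by their label. The acinar values carry the same limit as a measure of exocrine material. Across 35084 probes measured throughout, the root mean square log2 difference was 0.39 between the MOTS-c arrays and 0.32 between the scrambled arrays, and MOTS-c replicate 2 was nearer to scrambled replicate 2 (0.33) than to MOTS-c replicate 3 (0.39).

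The sequence upstream of each gene was also examined. In acinar cells the transcription factor PTF1A, together with RBPJL and a common E protein, forms a complex that is known to bind an E-box followed at a short distance by a TC box. The 250 bases before the annotated start of each gene (RefSeq, assembly GRCm38.p6, 9 of 9 genes matched) were searched on both strands for the E-box letters CANNTG and the TC box letters TTTCCC, and a pair was counted where the first bases of both lay 6 to 30 bases apart, which leaves no overlap between them. The letters of the E-box were found in 8 of 9 genes against 66.2% of all 32851 promoters, those of the TC box in 6 of 9 against 21.9%, and a pair in 4 of 9 against 4.44%. Pairs were counted whatever the order or strand of the motifs, so they include arrangements other than the one described for the complex. The pair was found in Ctrb1, Cela1, Cpa1 and Cel, and Pnlip held neither motif. In Cpa1, read on the strand of its TC box, the TC box came before the E-box, the reverse of the described order. Printed 5′ to 3′ on the strand of the gene, with every match in capitals, are Cela1 (chr15:100687921-100688170, minus strand), Ctrb1 (chr8:111691011-111691260, minus strand) and Cel (chr2:28563404-28563653, minus strand), shown because they hold the pair and their probes were well above background on every array, and Prss2 (chr6:41521526-41521775, plus strand), shown because it holds both motifs without a pair and its probe was well above background on no array:
Cela1: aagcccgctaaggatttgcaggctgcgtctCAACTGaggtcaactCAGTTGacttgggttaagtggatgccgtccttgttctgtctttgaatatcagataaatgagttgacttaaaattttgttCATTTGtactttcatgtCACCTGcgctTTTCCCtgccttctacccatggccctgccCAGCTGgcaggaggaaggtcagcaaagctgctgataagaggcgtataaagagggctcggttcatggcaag
Ctrb1: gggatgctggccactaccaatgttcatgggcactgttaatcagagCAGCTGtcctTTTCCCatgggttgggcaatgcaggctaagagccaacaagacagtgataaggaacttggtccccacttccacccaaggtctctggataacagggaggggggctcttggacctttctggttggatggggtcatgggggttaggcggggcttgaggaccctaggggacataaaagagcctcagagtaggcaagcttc
Cel: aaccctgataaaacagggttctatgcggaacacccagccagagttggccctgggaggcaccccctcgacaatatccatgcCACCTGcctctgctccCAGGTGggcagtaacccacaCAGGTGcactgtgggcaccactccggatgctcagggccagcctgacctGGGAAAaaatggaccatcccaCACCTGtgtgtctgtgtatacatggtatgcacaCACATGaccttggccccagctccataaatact
Prss2: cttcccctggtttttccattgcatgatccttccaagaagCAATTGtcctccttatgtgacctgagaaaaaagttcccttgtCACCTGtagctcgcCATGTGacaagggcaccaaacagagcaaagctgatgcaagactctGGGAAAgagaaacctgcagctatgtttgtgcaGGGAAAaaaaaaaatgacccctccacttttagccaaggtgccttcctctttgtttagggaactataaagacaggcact
In Ctrb1 the E-box began 205 bases before the start and the TC box 195 bases before it. In Cela1 an E-box began 109 bases before the start and the TC box 99 bases before it, which is the same spacing of 10 bases. In Cel the TC box lay on the other strand, 86 bases before the start, and the E-box followed at 65 bases. A match says only that the letters were there. It was not tested whether a factor bound in these cells.

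**Figure D1:**
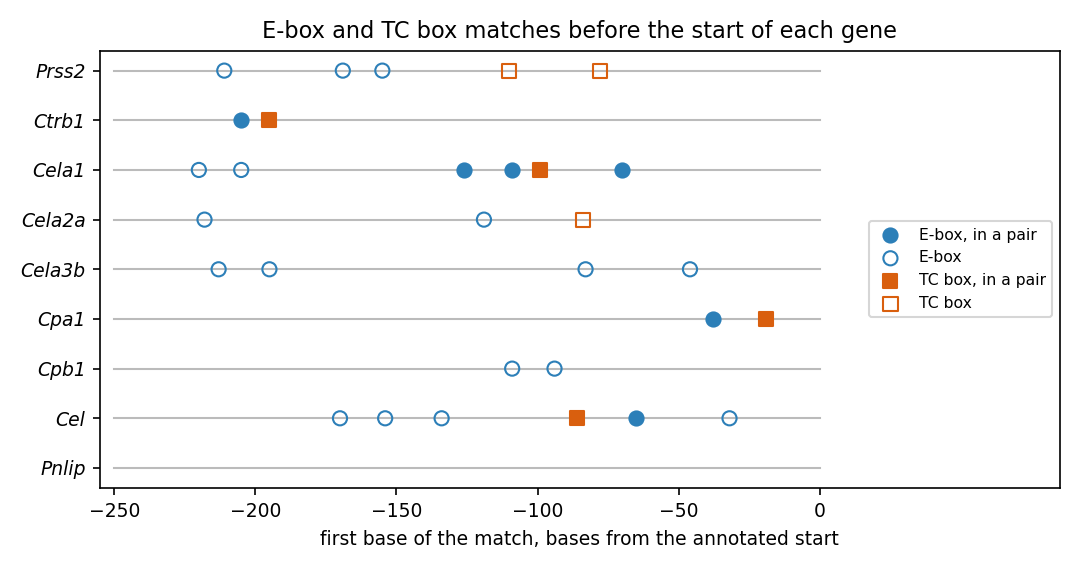
E-box (circles) and TC box (squares) matches in the 250 bases before the annotated start of each of the 9 genes, placed by the first base of the match, with the start at 0. Filled symbols are matches that lay 6 to 30 bases from a match of the other motif, found in Ctrb1, Cela1, Cpa1 and Cel, and open symbols are the rest.

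Most of these genes were at or near background in the islet cells. Of the 9 probes, 4 were well above background on every array (Ctrb1, Cela1, Cela2a and Cel), 2 on a single array (Cela3b and Cpa1, both on MOTS-c replicate 3) and 3 on no array (Prss2, Cpb1 and Pnlip). Among the 33024 probes with a gene symbol, 66.1% were well above background on all arrays, 5.7% on 1 to 3 arrays and 28.2% on none, so 4 of 9 was a lower share than that of the array as a whole, with no test made. Without MOTS-c replicate 3, the same 4 genes were above background and the remaining 5 were not.

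The trypsinogen probe was indistinguishable from its surroundings. Prss2 had a log2 intensity, as deposited, of 1.81 and 1.84 with scrambled peptide and of 1.63 and 1.57 with MOTS-c, where the lowest signal that counted as well above background was between 3.72 and 4.11. Its spot was 0.868 to 1.19 times the local background over the 4 arrays. The carboxypeptidase Cpb1 had a log2 intensity of 1.72 and 1.89 with scrambled peptide and 1.88 and 1.88 with MOTS-c, and the lipase Pnlip 1.70 and 1.85 against 1.65 and 1.60. No spot of these 3 genes reached the background limit, and no fold change can be given for them.

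Cela3b and Cpa1 lay at the limit itself. Cela3b, a pancreatic elastase, had a log2 intensity of 2.76 and 2.69 on the scrambled arrays, 3.44 on MOTS-c replicate 2 and 4.13 on MOTS-c replicate 3. Cpa1, which removes aromatic and aliphatic residues from the ends of peptides, had 2.80 and 2.74, then 1.57 and 4.01. Only the last value of each was well above background, at 1.52 and 1.72 times the local background, and the MOTS-c arrays lay on both sides of the scrambled arrays for Cpa1. MOTS-c replicate 3 was also the array with the largest share of gene spots well above background (65.0%), and whether the calls of Cela3b and Cpa1 follow from that was not tested. With the scrambled values raised to the background limit, the lower bound on the fold change was under 1 for both genes. Such a bound does not tell whether either gene changed, so no fold change can be given for them.

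The 4 genes above background differed widely in signal. Cela1, an elastase-family protease, was at 50.3 to 92.1 times local background, whereas Ctrb1 was at 1.97 to 2.61 times, Cela2a at 2.06 to 2.94 times and Cel at 3.23 to 4.42 times. Probes differ in brightness for the same amount of RNA, so these values place each probe against its own background and do not rank the genes. The summed linear intensity of the 9 probes was 3749 and 3770 with scrambled peptide and 2674 and 2213 with MOTS-c. Without Cela1 the sum was 189 and 210 against 197 and 216, and the groups overlapped. The lower sum with MOTS-c was therefore that of the Cela1 probe, and the other 8 probes together did not show it.

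**Figure D2:**
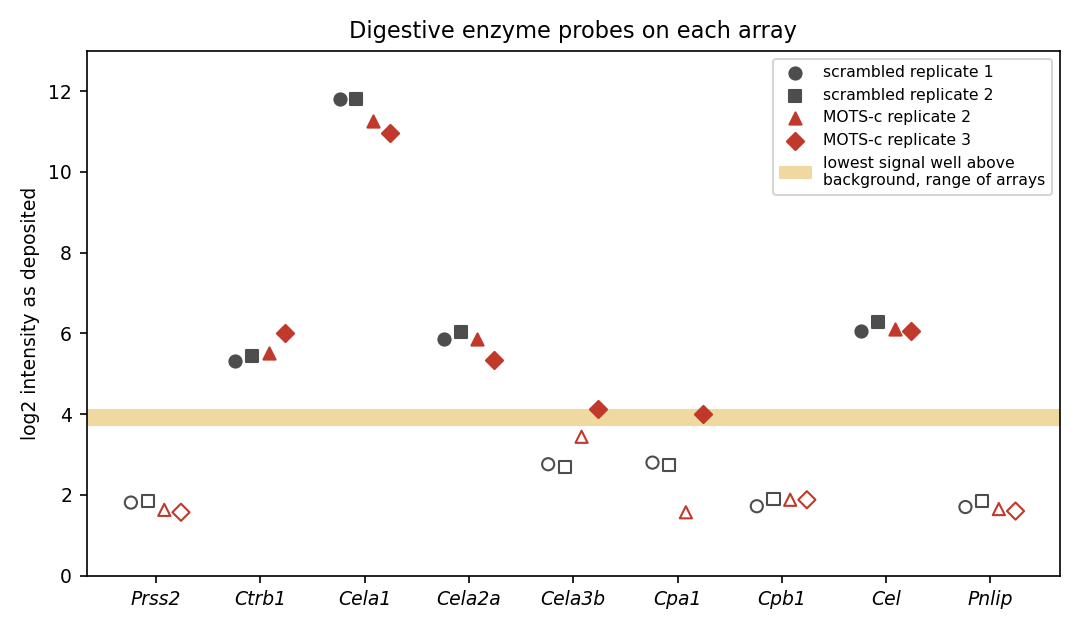
Log2 intensity as deposited of the 9 digestive enzyme probes on the 4 arrays, with filled symbols for spots well above background and open symbols for the rest. The band, from 3.72 to 4.11, spans the lowest signal well above background on each array, and Cela1 lies far above it on every array while Prss2, Cpb1 and Pnlip lie below it on every array.

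MOTS-c was then compared with the scrambled peptide. limma, fitted after quantile normalization to the 35087 probes that were above background on 2 or more arrays, called 0 of them at an adjusted p under 0.05 (0%), and the smallest adjusted p was 0.474. At an unadjusted p under 0.05 it called 2755 probes (7.85%), and the methods' t-test called 1 probe after adjustment (0.00285%) and 2312 without it (6.59%). None of the 9 genes was called at an adjusted p under 0.05, and the 5 that did not pass the filter were not tested. With unadjusted p under 0.05 and a change of at least 1.5-fold, 1 of the 4 genes tested (Cela1) was lower with MOTS-c, against 2.43% of all probes tested, and 0 were higher, against 1.1%. The groups did not overlap for Cela1, lower with MOTS-c, as for 18.6% of all probes, nor for Ctrb1, higher with MOTS-c, as for 19.4%. The median log2 fold change of the 4 genes was -0.28, and that of all probes was 0.014. In RNA of whole preparations, fewer cells of a type and less RNA per cell cannot be told apart.

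Cela1 had the greatest difference of the 4. Its normalized log2 intensity was 11.77 and 11.90 with scrambled peptide and 11.23 and 10.92 with MOTS-c. Both MOTS-c values lay below both scrambled values, and the step between the groups was wider than the step within either group, 0.12 and 0.32. The means were 11.83 ± 0.09 and 11.08 ± 0.22 (SD, n = 2 each), a log2 fold change of -0.76 ± 0.16 (SE), or 1.69-fold lower with MOTS-c, and the adjusted p of limma was 0.499 (unadjusted p of limma 0.00649). The 95% interval of the log2 fold change ran from -1.18 to -0.33, without correction for the number of probes. Leaving out 1 array gave -0.92 to -0.60.

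Ctrb1 went the other way. Its normalized log2 intensity was 5.29 and 5.52 with scrambled peptide and 5.58 and 5.90 with MOTS-c. Although the groups did not overlap, they were only 0.055 apart at their nearest values, less than the 0.23 and 0.32 between the arrays of a group. The log2 fold change was 0.33 ± 0.17 (SE) with a 95% interval from -0.13 to 0.79, and the adjusted p of limma was 0.726. It was 0.17 without MOTS-c replicate 3 and 0.49 without MOTS-c replicate 2.

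Cela2a, an elastase that cleaves after bulky hydrophobic residues, was at 5.84 and 6.13 with scrambled peptide and 5.93 and 5.19 with MOTS-c. Only MOTS-c replicate 3 was low, and the groups overlapped. The log2 fold change of -0.42 ± 0.29 (SE), with a 95% interval from -1.18 to 0.33 and an adjusted p of 0.777 from limma, became -0.054 without that array and -0.79 without MOTS-c replicate 2.

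Cel, a bile salt-dependent lipase that splits cholesterol esters, was at 6.03 and 6.37 against 6.16 and 5.95. The values of the groups overlapped, and the log2 fold change was -0.14 ± 0.18 (SE), with a 95% interval from -0.60 to 0.32 and an adjusted p of 0.884 from limma. Without scrambled replicate 2 it was 0.029. With 2 arrays in each group, an exact permutation test over samples cannot give a two-sided p below 0.333.

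**Figure D3:**
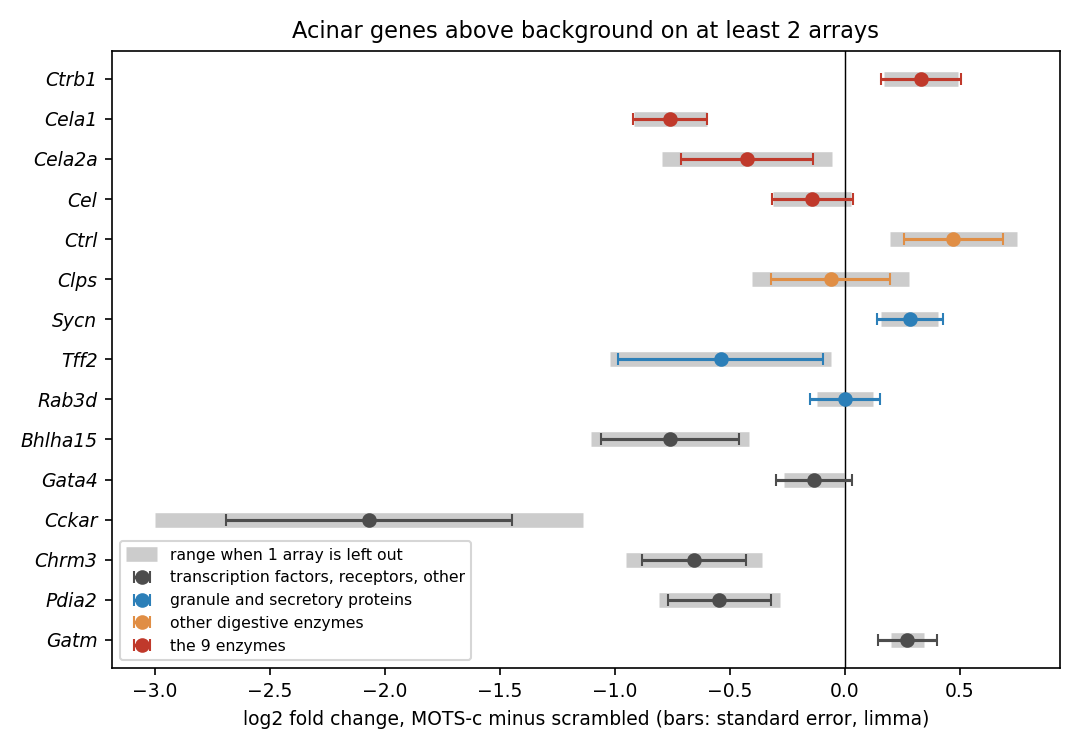
Log2 fold change of MOTS-c against scrambled for the 4 digestive enzymes and 11 other acinar genes whose brightest probe was well above background on at least 2 arrays, with standard errors of limma as bars and, in grey, the range when 1 array was left out. Among others, Cela1, Cckar, Bhlha15, Chrm3 and Pdia2 lie below 0 with no leave-out value above it, Ctrb1, Ctrl, Sycn and Gatm lie above 0, and no adjusted p was under 0.05.

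Other genes of the acinar cell were likewise split between probes at background and probes above it. Of 16 further digestive enzymes, 14 had a probe, of which 2 were well above background on every array (Ctrl and Clps), 1 on a single scrambled array (Try5) and 11 on none. The latter held trypsinogen relatives (Prss1, Prss3, Try4), both pancreatic amylases (Amy2a5, Amy2b), the lipase-related Pnliprp1 and Pnliprp2 and the phospholipase Pla2g1b. For Try10 and Ctrc no probe was found. The log2 intensity of the brightest Amy2a5 probe was 2.95 and 3.72 with scrambled peptide and 3.01 and 3.28 with MOTS-c, below the background limit of each.

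Of 14 genes of zymogen granules and acinar secretion, Sycn (syncollin, a granule membrane protein) and Rab3d (a GTPase of secretory granules) were above background on every array, Tff2 and Dmbt1 on some, and 10 on none, among them Spink1, the trypsin inhibitor, Gp2, the main granule membrane glycoprotein, and the 5 Reg genes of the list. The acinar transcription factors were likewise uneven. Ptf1a had a log2 intensity of 1.66 and 3.32 with scrambled peptide and 4.23 and 2.22 with MOTS-c, and only the 4.23 of MOTS-c replicate 2 was well above background. Rbpjl, its partner in the complex that binds the paired motif, was at 2.32 and 2.64 against 3.25 and 1.45 and was above background on no array. Nr5a2 was above background on none, whereas Bhlha15 (Mist1) and Gata4 were above it on all 4. Of the 4 genes with the motif pair, 3 were above background on all arrays (Ctrb1, Cela1 and Cel), as was 1 of the 5 without it (Cela2a). The share among all probes with a gene symbol was 66.1%, and whether the pair and the signal go together was not tested.

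Among these 38 other acinar genes with a probe, 11 passed the filter and 0 had an adjusted p of limma under 0.05. Their median log2 fold change was -0.13, beside 0.014 over all probes. With an unadjusted p under 0.05 and at least 1.5-fold, 2 of the 11 were lower (Cckar and Chrm3), against 2.43% of all probes, and 0 were higher, against 1.1%. The groups did not overlap for 4 that were lower and 3 that were higher, beside 18.6% and 19.4% of all probes. Cckar, the cholecystokinin receptor that triggers enzyme release, had a normalized log2 intensity of 5.96 and 6.00 with scrambled peptide and 4.84 and 2.98 with MOTS-c, the last not well above background. Its log2 fold change was -2.07 ± 0.62 (SE; adjusted p of limma 0.558), and -1.14 without MOTS-c replicate 3.

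Chrm3, the muscarinic receptor of acinar and also of beta cells, was at 8.19 and 8.24 against 7.86 and 7.27, and its probes gave log2 fold changes of -0.65 and -0.63 (adjusted p of limma 0.600 and 0.723), the first of which was -0.36 without MOTS-c replicate 3. Bhlha15, a regulator of the secretory machinery, was at 10.31 and 10.79 against 10.14 and 9.44, with a log2 fold change of -0.76 ± 0.30 (SE; adjusted p of limma 0.655), and -0.41 without MOTS-c replicate 3. In Cckar, Chrm3 and Bhlha15 alike, MOTS-c replicate 3 was the lowest of the arrays. Not every gene was lower: Ctrl, a chymotrypsin-like protease, was at 4.50 and 4.50 against 5.25 and 4.70, with a log2 fold change of 0.47 ± 0.22 (SE; adjusted p of limma 0.693), and Sycn was at 5.12 and 5.08 against 5.51 and 5.26, with 0.28 ± 0.14 (SE; adjusted p of limma 0.717). Without MOTS-c replicate 2 these were 0.20 for Ctrl and 0.16 for Sycn. Clps, the colipase that anchors Pnlip to fat droplets, had -0.061, with the groups overlapping and values from -0.40 to 0.28 when 1 array was left out, and Rab3d had 0.0013.

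**Figure D4:**
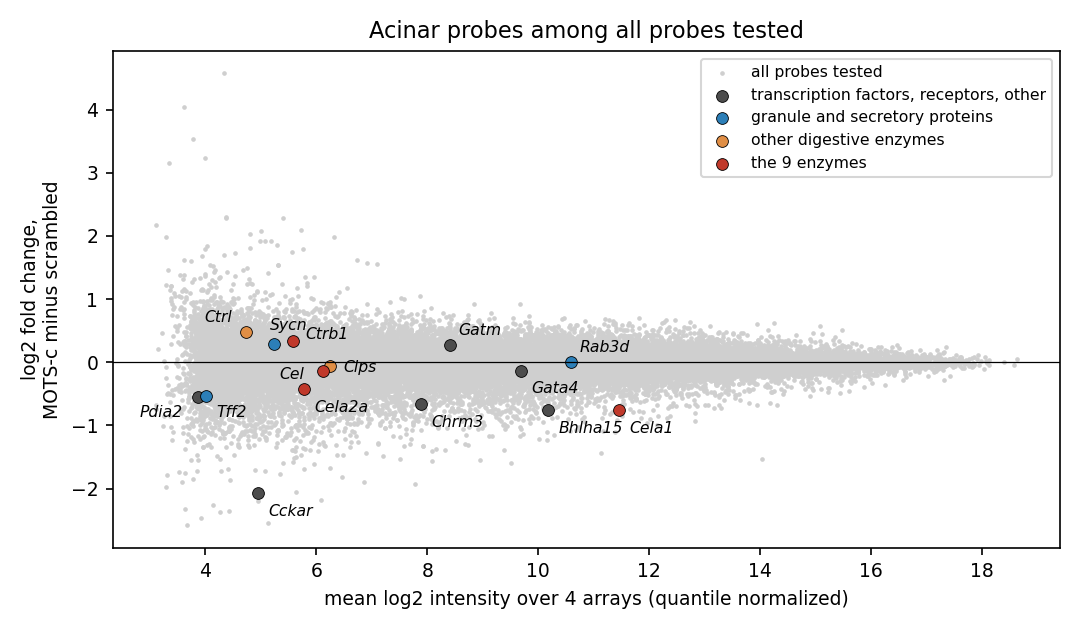
Log2 fold change of MOTS-c against scrambled plotted on the mean normalized log2 intensity of each of the 35087 probes tested (grey), with the brightest probe of each acinar gene that passed the filter in color. Cela1, at a mean near 11.5, lies in the lower part of the cloud, while Ctrb1, Cela2a and Cel lie nearer to 0 at means between 5.57 and 6.13.

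The marker lists of the other cell types of the islet were set beside these values. Of 10 beta cell genes, 8 were well above background on every array (among them Ins1, Ins2, Iapp and Pdx1), Slc2a2 was on 3 arrays and Ucn3 on none. Of 10 genes of the other endocrine cells, 7 were above background on every array (among them Gcg and Sst), and Pyy was above background on none. The summed linear intensity of the beta cell list was 845480 and 967360 with scrambled peptide and 888550 and 897660 with MOTS-c, and the groups overlapped. Ins1, Ins2 and Iapp made up most of that sum, so it says little of the dimmer genes. Of the 9 that passed the filter, the groups did not overlap for 4 lower and 3 higher with MOTS-c, beside 18.6% and 19.4% of all probes. The largest change was that of Slc2a2, with a log2 fold change of -1.33 (adjusted p of limma 0.474). Of 31 genes of ductal, mesenchymal, endothelial and blood cells, 13 were above background on every array, 4 on some and 14 on none. The 13 included Krt7, Spp1, Car2 and Onecut1 of the ductal list, Col1a2, Pdgfra and Acta2 of the mesenchymal list, Pecam1 and Plvap of the endothelial list, and Cd68, Csf1r and Cd3e of the macrophage and leukocyte list. Among them Acta2, a smooth muscle actin, was at 137 to 161 times local background, Csf1r, a macrophage growth factor receptor, at 68.1 to 127 times and Plvap, a protein of fenestrated endothelium, at 38.1 to 58.3 times. These are the brightest probes. The other Acta2 probes were well above background on no array, and the other Csf1r probe was at 8.08 to 11 times local background. The 14 above background on no array included Krt19 and Sox9 of the ducts, Col1a1 and Col3a1 of the mesenchyme, Cdh5 and Kdr of the endothelium, and Ptprc and Adgre1 of leukocytes and macrophages, so each of these lists held genes of both kinds. The summed linear intensity of these 31 was 11559 and 12155 against 11955 and 11196, again overlapping. Acta2, Csf1r and Plvap made up most of that sum, so it too says little of the dimmer genes. Of the 31, 16 passed the filter. Among them the groups did not overlap for 4 lower and 1 higher with MOTS-c, beside 18.6% and 19.4% of all probes. Their median log2 fold change was -0.041, and the largest change was that of Pdgfra, -1.05 (adjusted p of limma 0.567).

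**Figure D5:**
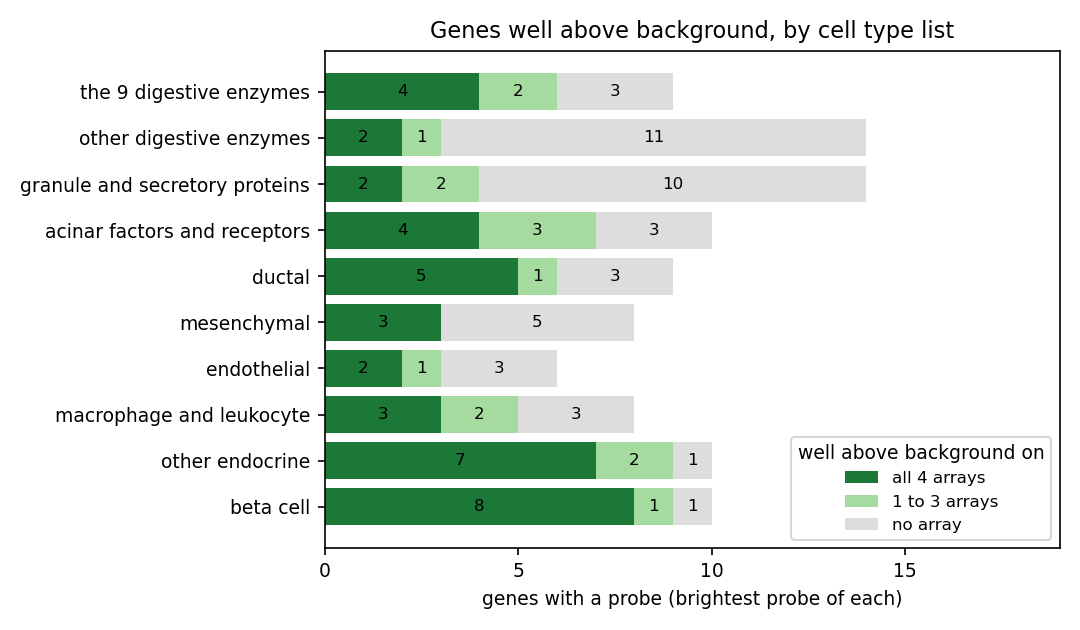
Number of genes in each marker list whose brightest probe was well above background on all 4 arrays (dark green), on 1 to 3 arrays (light green) or on no array (grey). The acinar lists have 4 of 9, 2 of 14, 2 of 14 and 4 of 10 genes in dark green, and the beta cell list has 8 of 10.

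The pattern of the 4 genes over the arrays was last compared with that of other probes. The median of their centered profiles was -0.017 and 0.30 with scrambled peptide and 0.019 and -0.36 with MOTS-c, so it separated scrambled replicate 2 and MOTS-c replicate 3 more than the groups. The candidates were 21821 probes with a symbol that were above background on every array, with the 9 enzymes left out. The 10 nearest to this profile included those of Rnf17, 2410018L13Rik, Ap5m1, S100a1, Rasgrp1, Slc12a4, Amdhd2, B4galnt1 and Matk, at a root mean square distance of 0.02 to 0.03 on the log2 scale over 4 arrays.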

How the data were processed

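The authors labeled the RNA with Cy3, hybridized one-color Agilent arrays and extracted spots with Feature Extraction (version 11.0.1.1). The deposited intensity of a spot had its background removed by that software, with no scaling across arrays, and another table from the authors repeats the values in rounded form. Here, 3671 control spots per array and 96 to 131 outlier spots were left out, log2 intensities of repeated spots were averaged, and probes well above background (the scanner software's flag) on at least 2 arrays were quantile normalized. limma (version 3.58.1, R 4.3.3) compared the groups with Benjamini-Hochberg adjustment over 35087 probes. The fit had 2 residual and 2.64 prior degrees of freedom. The number of arrays limits the precision. Times background is the median spot signal over the median local background. Probes were named by accession through RefSeq (GRCm38.p6; 32994 probes). The array design uses another build, so only promoters carry coordinates.

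The genes that could be named were the 9 members, any gene of the other acinar lists, marker genes where a list is discussed, and the 10 probes nearest to the members' median profile. Of these, 1 gene of the acinar lists, which the counts and medians of those lists leave out, and 1 of the 10 probes are not reported here. A gene with several probes was followed through its brightest. The sex-linked and proliferation genes and the profile of Cela1 were added after values were seen. The members and lists were chosen with earlier results of these data known. The animals being 2 littermates per group, p-values measure the spread between those samples. The limma step was tested on simulated data. The alternatives were a 75th percentile shift, normexp with an offset of 50 on median signals, the rounded table, no filter, a strict filter (all 4 arrays), limma with a trend, the methods' t-test and leaving out each array.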

Additional observations from a re-analysis of the deposited data

How the results depend on the processing

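No paired analysis was possible because the groups share replicate number 2 alone. The 4 arrays lay on 1 slide, which left no slide block to fit, and each gene had 1 probe, so averaging probes changed nothing. The number of probes at an unadjusted p under 0.05 with at least 1.5-fold, 1239 as reported, was 406 with normexp and 457 by the methods' t-test, and 1391 to 3299 with 1 array left out, the highest without MOTS-c replicate 2. At an adjusted p under 0.05, the t-test called 1 probe against 0. The median log2 fold change of the 4 genes, -0.28, was -0.091 over all 9 genes with no filter on dim probes, -0.12 with normexp, and -0.52 (without MOTS-c replicate 2) to -0.045 (without MOTS-c replicate 3) with 1 array left out. Cel changed sign, to 0.029, without scrambled replicate 2, and was -0.31 without scrambled replicate 1. The cause of these shifts was not tested, apart from the 5 genes that the missing filter adds. Cela1 stayed lower with MOTS-c in each of its 12 alternatives, from -0.92 to -0.60. For most of these the sign could not have differed. The fit with a trend, the methods' t-test and the mean over probes reuse the reported fold change. Leaving out 1 array could not change the sign, as both MOTS-c values lay below both scrambled values. With all 4 arrays kept, the adjusted p ran from 0.200 (limma with a trend) to 0.757 (the methods' t-test). Signal over background limited the comparison to 4 of the 9 genes.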

Other observations

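The profile of Cela1, examined after its values were seen, after centering, was 0.32 and 0.44 with scrambled peptide and -0.22 and -0.54 with MOTS-c. The nearest probes by root mean square distance over the 4 arrays were those of Slc22a4, Gsta2, R74862, Psd2, Cd44, Neil2, Gprc5c, Tns3, Tph1 and Csprs, at 0.01 to 0.04 on the log2 scale, and their log2 fold changes lay between -0.80 and -0.71. Since they were picked for this likeness, the values are a description. Cd44 encodes a hyaluronan receptor and Tph1 the enzyme that begins serotonin synthesis in beta cells. The 9 digestive enzymes were left out of the candidates, and no gene of the other acinar lists was among the 10.

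Dmbt1, a secreted mucin-like glycoprotein, had a log2 intensity of 5.38 on MOTS-c replicate 2 and 1.68, 1.84 and 1.55 on the other arrays, so its signal above background rests on 1 spot. The trypsinogen relative Try5 was above background on scrambled replicate 1 alone, at 4.48, and lay between 2.86 and 3.47 on the others.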
